A study of Homo sapiens with 12 samples.

Results

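Loss of POLR1A, the largest subunit of RNA polymerase I (Pol I), was compared with DMSO controls over all genes in HCT116, a human colorectal carcinoma line. The comparison takes 6 of the 12 libraries of the series, 3 with POLR1A depleted and 3 controls, and covers the 23593 of 63241 listed genes that had enough counts to test. The POLR1A-depleted cells carried an auxin-inducible degron of the first kind (AID1) on endogenous POLR1A. Doxycycline at 1 µg/ml switched on OsTIR1, the plant receptor that the degron needs, and indole-3-acetic acid (IAA) at 500 µM followed after 24 h. The controls were wild-type HCT116 with DMSO. The remaining 6 libraries are used only where named: 3 of a POLR2A-AID2 line, whose RNA polymerase II (Pol II) subunit is degraded on 5-Ph-IAA at 1 µM, and 3 of wild-type cells with actinomycin D at 5 µg/mL, a DNA-binding transcription inhibitor. By their titles the degron and control dishes were treated for 8 h and the actinomycin D dishes for 6 h, whereas the extraction protocol names a single harvest at 6 h. All cells grew in the same medium. No library of the POLR1A line without doxycycline and IAA, and none of wild-type cells with these agents, was analysed here. So the edited line, doxycycline, OsTIR1, IAA and the loss of POLR1A cannot be told apart in any difference below. The 3 replicates of a group are separate dishes of the same day, which the submitters call technical, and every p-value here rests on the spread between such dishes.

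Pol I transcribes the ribosomal DNA repeats in the nucleolus into the precursor of the large ribosomal RNAs, and does not transcribe protein-coding genes. When the precursor is not made, the 5S particle with RPL5 and RPL11 is known to bind MDM2, the ligase that marks p53 for destruction, and p53 then activates its target genes. Because the ribosomal RNA was removed before sequencing, these libraries hold no measure of Pol I output itself, and what follows is the Pol II response and the small RNAs that were kept.

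The POLR1A-depleted libraries held 18797087 to 21802364 estimated counts and the controls 12235119 to 17535790, with 5.618 to 6.026% of counts from mitochondrial genes against 6.143 to 8.265%. POLR1A mRNA (ENSG00000068654, chr2:86020216-86106155 on GRCh38, - strand) was at 147, 151 and 145 CPM (counts scaled to library size) in the depleted libraries and 234, 249 and 230 CPM in the controls, log2 fold change -0.69 ± 0.06 (SE), adjusted p = 2.03e-09. The degron acts on the protein, so this mRNA is no check of the depletion. Of 16 listed markers of colorectal epithelium, 12 could be tested, with a summed level of 2060 to 2210 CPM in the depleted libraries against 3710 to 4190 CPM in the controls. Summed markers of other cell types were low in both groups: 21.8 to 23.9 against 9.77 to 10.7 CPM for fibroblasts, 9.49 to 11.9 against 5.37 to 7.81 CPM for blood cells and 0.363 to 0.783 against 0.625 to 0.899 CPM for endothelium. The neural list, in which the line expresses SYT1 and MBP, stood at 96.7 to 104 against 147 to 162 CPM.

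With libraries scaled by TMM (a trimmed mean over genes), genes of ribosome production, DNA replication and epithelial junctions fell, and p53 target genes, some immediate early genes and a group of aryl hydrocarbon receptor targets rose. In edgeR's quasi-likelihood test 9231 of 23593 genes (39.1%) passed an adjusted p of 0.05, with 4851 higher (20.6%) and 4380 lower (18.6%). These shares are the background for the lists below, but the share of calls depended on abundance. In the highest quintile by abundance 37.6% of genes were higher and 32.5% lower, and in the lowest 3.6% and 3.94%. For lists of abundant genes the shares over all genes are therefore too low a background, and lists were not compared with genes of matched abundance. Among the 14958 protein-coding genes tested, which make up most lists, 28.7% were higher and 24.0% lower. Many changes were small: 2003 of the higher and 1657 of the lower genes moved by less than 0.5 on the log2 scale, while 109 rose and 93 fell by 3 or more. The median over all genes was 0.013, and the quartiles were -0.41 and 0.44. Scaling the libraries to the 13 mitochondrial mRNAs in place of TMM moved that median to 0.369. Under that scaling 7200 genes were higher and 1263 lower, so that the share of higher genes among those called went from 52.6 to 85.1%. Changes below are on the TMM scale unless stated. Genes named by the rule given with the processing that lost their call under mitochondrial scaling are given with that value. For genes mentioned outside that rule, such as RPL28, it is not given.

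**Figure D1:**
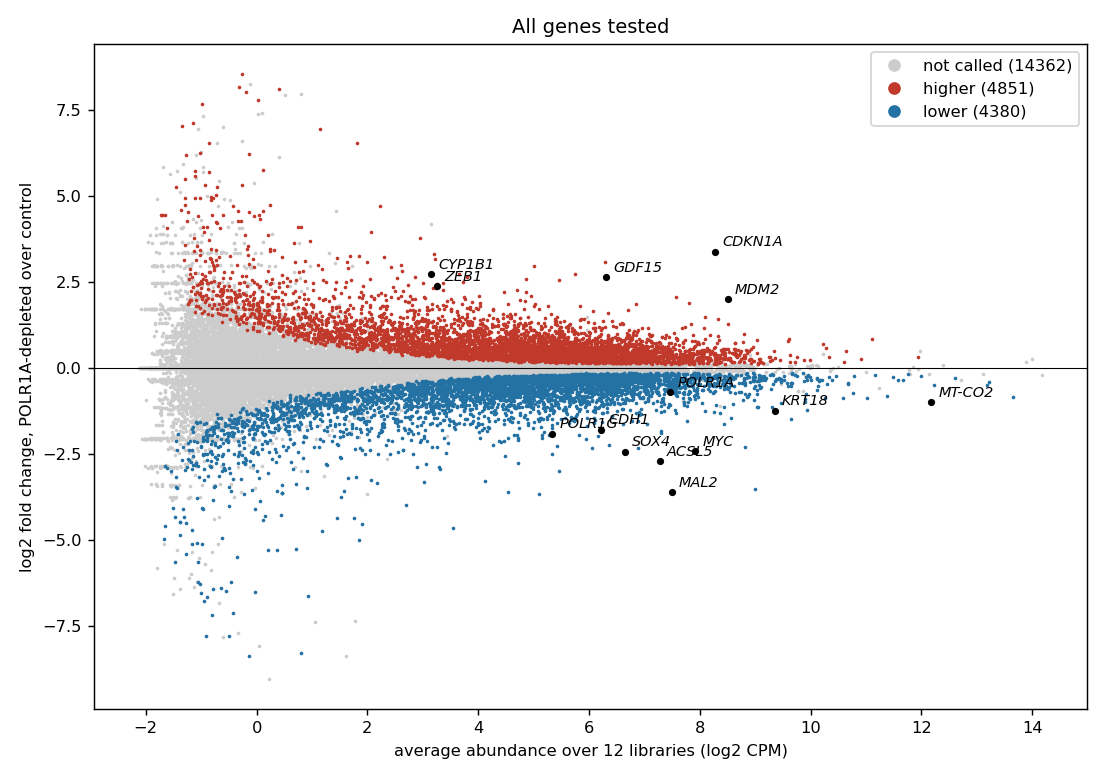
Every gene tested, with average abundance over the 12 libraries (log2 CPM) on the x axis and the log2 fold change of POLR1A-depleted over control on the y axis; red points passed as higher (4851), blue points as lower (4380) and grey points did not pass. CDKN1A and MDM2 lie far above 0 and MYC, ACSL5 and MAL2 far below it at high abundance, and most coloured points lie within 1 log2 unit of 0.

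The genes of the Pol I machine itself were mostly lower. Of the 8 subunits encoded for Pol I alone or shared with Pol III that were listed, 7 fell and 1 rose, with a median log2 fold change of -0.75 against 0.013 over all genes. The largest fall was that of POLR1G, a subunit of the Pol I-specific dimer that helps initiation, from 82.4, 86.3 and 82.9 CPM in the controls to 19.8, 21.1 and 26.7 CPM. That is 3.72-fold lower, log2 fold change -1.89 ± 0.09 (SE), adjusted p = 1.88e-13, and every depleted library was below every control. POLR1G overlaps ERCC1 on the opposite strand, and the sources used here do not say whether counting used strand. POLR1B, the second largest subunit, was at 109, 101 and 93.6 against 176, 205 and 193 CPM, log2 fold change -0.92 ± 0.06 (SE), adjusted p = 1.5e-10. POLR1E, the dimer partner of POLR1G, stood at -0.95 ± 0.07 (SE) and POLR1C, shared with Pol III, at -0.81 ± 0.07. The 1 subunit that rose was POLR1F, at 0.30, chosen for mention after its value was seen. Among the 8 factors that load and stop Pol I, 5 fell and none rose, with a median of -0.25 that turned to 0.11 with mitochondrial scaling. UBTF, which coats active ribosomal DNA, was at 107, 112 and 108 against 151, 189 and 174 CPM, log2 fold change -0.65 ± 0.07 (SE), adjusted p = 6.34e-08. TAF1A of the promoter selectivity factor SL1 fell by 0.86 and the terminator TTF1 by 0.63, while RRN3, which makes Pol I competent to start, fell by 0.28. TBP, shared by all polymerases, did not pass at -0.22 ± 0.10 (edgeR adjusted p = 0.0877). With mitochondrial scaling UBTF (-0.29) and TTF1 (-0.25) no longer passed and RRN3 turned to 0.08, which did not pass. Both lists were also lower in the other groups, against the same controls. The subunit median was -0.54 with POLR2A depleted (5 of 8 lower) and -0.61 with actinomycin D (8 lower). For the 8 factors the medians were -0.77 (7 lower) and -0.35 (5 lower). Compared directly, 3 subunits were higher and 4 lower with POLR1A depleted than with POLR2A depleted.

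POLR1G and UTP14A, the Pol I subunit and the small-subunit assembly factor with the largest falls, both carry the letters CACGTG before their start in the RefSeq promoter table (GRCh38.p14), and are shown for that. CACGTG is the E-box that MYC with MAX is known to bind, and it reads the same on both strands. Their sequences follow, 5′ to 3′ on the gene's strand, with the motif in capitals. The POLR1G stretch (chr19:45406614-45406643, + strand) is kept short because GENCODE 29 annotates an untranslated region there, and its motif begins 12 bases before the RefSeq start. The UTP14A stretch (chrX:129905914-129906033, + strand) has its motif 241 bases before the start.
POLR1G: gccctacccctttggatcCACGTGgtctgc
UTP14A: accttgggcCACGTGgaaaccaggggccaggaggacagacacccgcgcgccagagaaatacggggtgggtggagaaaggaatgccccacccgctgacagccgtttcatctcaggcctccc
Over all 27305 promoters of the table, 6.49% held the motif in the 250 bases before the start, and 8.26% of the 13232 tested genes with a promoter entry did. The motif was in 1 of 7 Pol I subunits, POLR1G itself, and in 0 of 8 Pol I factors. The share was 16.7% of 48 small-subunit factors, 13.5% of 52 large-subunit factors, 12.5% of 24 snoRNP genes, 4.76% of 63 ribosomal protein genes and 16.7% of 18 p53-induced arrest genes. Small-subunit factors with the motif had a median log2 fold change of -0.75 and those without it -0.73, and for the large-subunit factors the medians were -0.53 and -0.55. For snoRNP genes they were -0.25 with it and -0.50 without. A match of these letters is a description and not a binding site.

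Ribosome assembly factors fell almost as a block. Of 55 tested small-subunit factors 51 fell and 1 rose (median -0.68), and of 60 large-subunit factors 53 fell and 1 rose (median -0.57), against 18.6% lower over all genes. UTP14A, of the small-subunit processome, went from 44.3, 55.7 and 54.7 to 15.9, 17.6 and 17.8 CPM, log2 fold change -1.59 ± 0.12 (SE), adjusted p = 9.64e-09. WDR3, another processome member, went from 172, 210 and 194 to 79.6, 74.8 and 73.1 CPM, and RRP9, which binds the U3 small nucleolar RNA, from 65.5, 70.7 and 66.6 to 26.7, 26.6 and 27 CPM. NOL6, also of the processome, stood at -1.10 ± 0.07. On the large-subunit side NOP16 was at -1.31 ± 0.11, RRS1, which brings in the 5S particle, at -1.30 ± 0.12, BOP1 of the PeBoW complex at -1.28 ± 0.06 and the GTPase GNL3 at -1.19 ± 0.06. In all 8 of these genes each depleted library was below each control. The risers were DDX52 (0.41) and SBDS (0.40), which acts late in the cytoplasm, both chosen for mention after their values were seen. With mitochondrial scaling 27 small-subunit and 21 large-subunit factors were lower, and the medians stayed below 0 at -0.32 and -0.21.

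The proteins that guide RNA modification in the nucleolus moved the same way. Of 30 snoRNP core proteins and nucleolar chaperones 25 fell and 2 rose (median -0.56, and 11 lower with mitochondrial scaling). NOP56, a core protein of C/D box particles, went from 304, 328 and 330 to 136, 140 and 143 CPM, log2 fold change -1.20 ± 0.05 (SE), adjusted p = 7.49e-14. NUFIP1, a particle assembly factor, was at -1.49 ± 0.10 and NOL8 at -0.94 ± 0.06. Nucleolin (NCL) fell by 0.99 and dyskerin (DKC1), the pseudouridine synthase, by 0.87. NPM1 fell by 0.50 and fibrillarin (FBL), the methyltransferase, by 0.54, though neither passed with mitochondrial scaling (-0.14 and -0.18). Among 25 genes that carry small nucleolar RNAs in their introns 21 fell and none rose (median -0.76, and 13 lower with mitochondrial scaling). EPB41L4A-AS1 went from 36.1, 35.7 and 38.7 to 9.65, 11.1 and 10.6 CPM and SNHG15 from 49.2, 48.3 and 53.3 to 17, 17.5 and 20.1 CPM. SNHG1 and SNHG5 were at -0.97 ± 0.05 and -1.14 ± 0.06. Against the same controls the host genes had a median of -1.18 with POLR2A depleted (21 lower, 2 higher). With actinomycin D it was -0.76 (16 lower, 3 higher). For the snoRNP list these medians were -0.62 (20 lower, 1 higher) and -0.14 (12 lower, 10 higher). The falls of the host genes were thus not particular to POLR1A depletion. Several of these hosts begin with a terminal oligopyrimidine tract, and their spliced RNA is known to be degraded during translation.

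**Figure D2:**
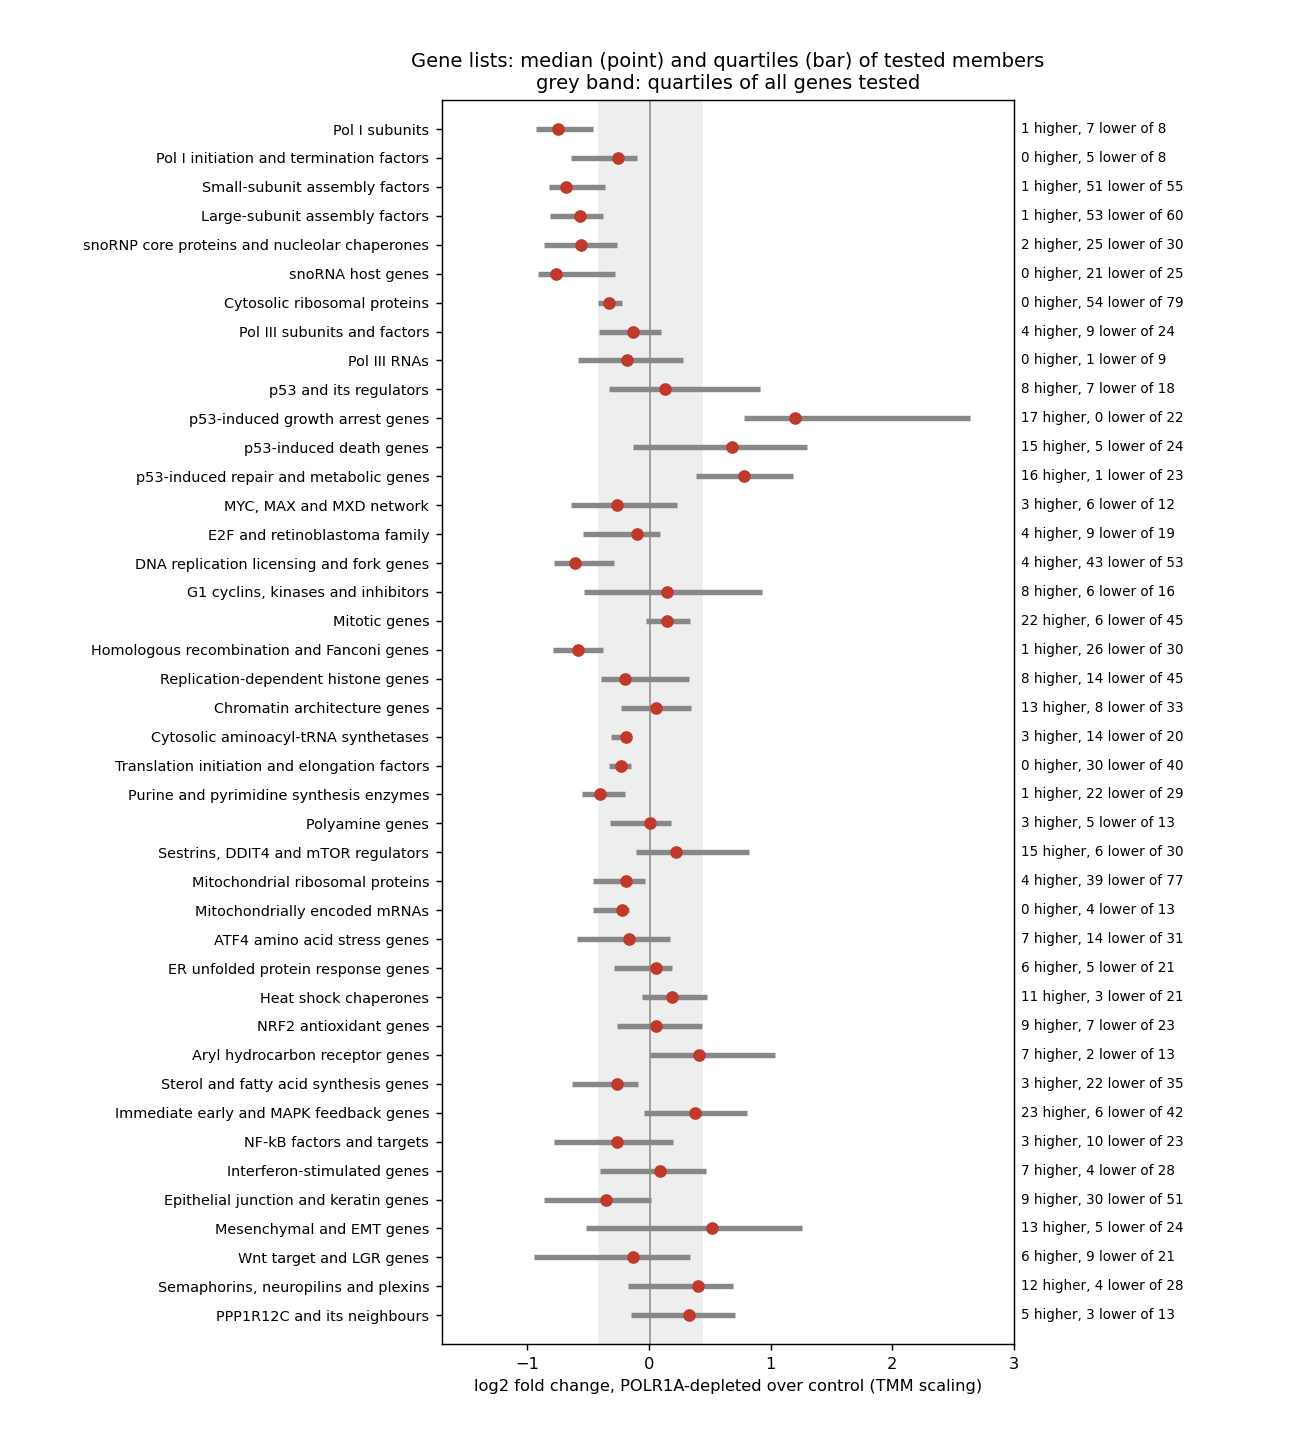
Median (red point) and quartiles (grey bar) of the log2 fold change of POLR1A-depleted over control for the tested members of 42 gene lists, with counts of members that passed as higher and lower printed at the right; the grey band shows the quartiles of all genes tested. The Pol I, assembly, snoRNP, snoRNA host, replication and recombination lists lie at the left and the 3 p53-induced lists at the right.

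The ribosome's own proteins had a smaller median change than the factors that build it. Of 79 cytosolic ribosomal protein genes 54 fell and none rose, with a median of -0.33 and members from -0.77 to 0.11. With mitochondrial scaling the median was 0.03 and 2 members were lower, so this direction depends on the scaling. RPL3 was at 604, 660 and 690 against 933, 1100 and 1010 CPM, log2 fold change -0.64 ± 0.06 (SE), adjusted p = 2.11e-08, and RPL10A at 241, 256 and 258 against 380, 432 and 402 CPM, with no overlap in either. RPS26 and RPL12 were at -0.77 ± 0.16 and -0.62 ± 0.10. With mitochondrial scaling RPL3 (-0.28) and RPL12 (-0.26) no longer passed, and RPL10A (-0.33) and RPS26 (-0.39) did. RPL5 and RPL11, the 5S particle proteins, fell by 0.37 and 0.58, and neither passed with mitochondrial scaling (-0.02 and -0.22). Estimated counts divide reads between these genes and their many processed copies, which makes their values uncertain. In the other groups the list's median on the TMM scale was not below that of the controls. It was 0.00 with POLR2A depleted and 0.62 with actinomycin D, where 73 of 79 were higher. These are levels relative to the other genes of a library, so they do not show whether the amount of these mRNAs in the cell changed. Of the 79, 45 were lower with POLR1A depleted than in each of the 3 other groups, against 5.81% of all genes (1371), while 8.47% of all genes (1999) were higher than in each of them. With mitochondrial scaling these counts over all genes were 256 and 1293, so counts against all 3 groups, here and below, depend on the scaling. The 13 mRNAs that set that scaling were themselves lower with actinomycin D (median -1.63 on the TMM scale), so it raises the actinomycin D values.

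Other parts of the translation machine shifted by small amounts. Of 40 initiation and elongation factors 30 fell and none rose (median -0.23, and 0.12 with 1 lower under mitochondrial scaling). EIF4B, a cofactor of the helicase that opens mRNAs, was at 620, 613 and 604 against 922, 1080 and 1060 CPM, log2 fold change -0.73 ± 0.06 (SE), adjusted p = 1.12e-09. EIF4EBP1, the repressor of cap binding, fell by 0.72 and no longer passed with mitochondrial scaling (-0.36). Of 20 cytosolic aminoacyl-tRNA synthetases 14 fell and 3 rose (median -0.19, and 0.17 with none lower under mitochondrial scaling), led by FARSB (-0.68 ± 0.06) and LARS1 (-0.67 ± 0.05), at -0.33 and -0.31 and not passing under that scaling. Among the 24 genes for Pol III and its factors 9 were called lower and 4 higher, with a median of -0.13 that was 0.24 under mitochondrial scaling. POLR3G, the subunit isoform of proliferating cells, was at 50, 50.7 and 46.6 against 91.9, 92.4 and 92.5 CPM, while its sister POLR3GL rose from 5.15, 5.16 and 4.67 to 7.42, 7.15 and 9.08 CPM. POLR3K was at -1.0 ± 0.12. Of 9 Pol III RNAs with enough counts 1 passed, RNU6ATAC at -1.51 ± 0.51 (edgeR adjusted p = 0.0217), and it lost that call with mitochondrial scaling (-1.11) or without depleted replicate 1 or 2 or control replicate 2 or 3 (adjusted p of 0.0607 to 0.116).

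MYC, the factor that drives both Pol I activity and the assembly genes in many cells, was among the largest falls of abundant mRNAs. It went from 662, 783 and 759 CPM in the controls to 135, 132 and 151 CPM (ENSG00000136997, chr8:127735434-127741434 on GRCh38, + strand), 5.27-fold lower, log2 fold change -2.40 ± 0.08 (SE), adjusted p = 2.12e-12. MYC was also low in the other groups, at a mean of 81.6 ± 7.9 CPM (SD, n = 3) with POLR2A depleted and 11.9 CPM with actinomycin D. Its partner MAX fell by 0.32, and turned to 0.05 without passing under mitochondrial scaling. Among the MXD proteins, which pair with MAX and repress, MXD4 rose from 11.4, 10 and 9.4 to 28.1, 26.2 and 29.4 CPM and MXD1 from 3.83, 4.62 and 4.44 to 14.7, 13.7 and 17 CPM. Over the 12 tested genes of the network 6 fell and 3 rose, with a median of -0.26 (0.10 under mitochondrial scaling). Of 29 purine and pyrimidine synthesis enzymes 22 fell and 1 rose (median -0.40, with 3 lower under mitochondrial scaling). DHODH of pyrimidine synthesis was at 10.8, 10.9 and 10.5 against 24.5, 28.2 and 28.4 CPM, CAD, the enzyme that begins that pathway, at -0.98 ± 0.06, and PPAT, which begins purine synthesis, at -0.74 ± 0.06. Of 13 polyamine genes 5 fell and 3 rose. AMD1, which makes decarboxylated S-adenosylmethionine, fell from 201, 225 and 219 to 90.1, 87.5 and 82.9 CPM, and SRM, spermidine synthase, stood at -0.94 ± 0.07.

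Genes known to be induced by p53 rose in large part, and its regulators were divided. MDM2, the ligase named above, rose from 205, 204 and 219 to 880, 793 and 850 CPM, 4.02-fold, log2 fold change 2.01 ± 0.05 (SE), adjusted p = 2.7e-17, while its relative MDM4 fell by 0.43 (-0.08 and not passing under mitochondrial scaling). PPM1D and CCNG1, which damp the response, rose by 1.38 and 1.16, and TP53INP1, which sustains it, by 2.57. Of 18 listed regulators 8 rose and 7 fell, so the list as a whole had no single direction.

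Genes of growth arrest had the highest median of the 3 lists of p53-induced genes. Of 22 tested 17 rose and none fell, with a median of 1.20 against 0.013 over all genes and 20.6% higher. CDKN1A (ENSG00000124762, chr6:36676460-36687339 on GRCh38, + strand), the p21 inhibitor of cyclin-dependent kinases, was at 833, 829 and 843 against 74.7, 86.6 and 77.1 CPM, log2 fold change 3.39 ± 0.06 (SE), adjusted p = 5.79e-20. GDF15, a secreted stress cytokine, rose from 29.3, 32.8 and 29.8 to 179, 196 and 201 CPM, and PRDM1 from 0.625, 0.36 and 0.935 to 6.02, 6.16 and 6.68 CPM. Of 24 death genes 15 rose and 5 fell (median 0.68). TNFRSF10B, the death receptor DR5, rose from 107, 107 and 95.2 to 420, 432 and 443 CPM and TNFRSF10C, a decoy receptor for the same ligand, from 1.64, 1.32 and 1.75 to 19.8, 22.3 and 23 CPM. BBC3 (PUMA), which opens the mitochondrial route to death, was at 16.5, 19.8 and 20 against 5.07, 4.56 and 4.15 CPM. Of 23 repair and metabolic targets 16 rose and 1 fell (median 0.78): RRM2B, a ribonucleotide reductase subunit, was at 1.88 ± 0.06, TIGAR, which lowers glycolytic flux, at 1.82 ± 0.06, and the translesion polymerase POLH at 1.67 ± 0.06. In none of the genes named in this paragraph did a depleted library overlap a control.

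The arrest list had a median of 0.39 with POLR2A depleted and -1.11 with actinomycin D, each against the same controls. Compared directly, 19 of its 22 genes were higher with POLR1A depleted than with POLR2A depleted and 1 was lower, and 20 were higher than with actinomycin D and none lower. MDM2 was at a mean of 218 CPM with POLR2A depleted and 182 CPM with actinomycin D, and the difference from POLR1A depletion was 1.95 ± 0.05 and 2.21 ± 0.05 on the log2 scale. The death list differed less from POLR2A depletion, with 13 of 24 higher and 8 lower and a median of 0.19. FAS, of that list, was at 86.3 CPM with POLR2A depleted, 0.21 ± 0.07 below the POLR1A-depleted level of 99.4, 102 and 97.4 CPM. The repair and metabolic list was higher in the other groups too. Its median against the controls was 0.62 with POLR2A depleted (15 of 23 higher, 4 lower) and 0.51 with actinomycin D (13 higher, 3 lower). Compared directly, 10 of its genes were higher and 3 lower with POLR1A depleted than with POLR2A depleted (median 0.11).

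**Figure D3:**
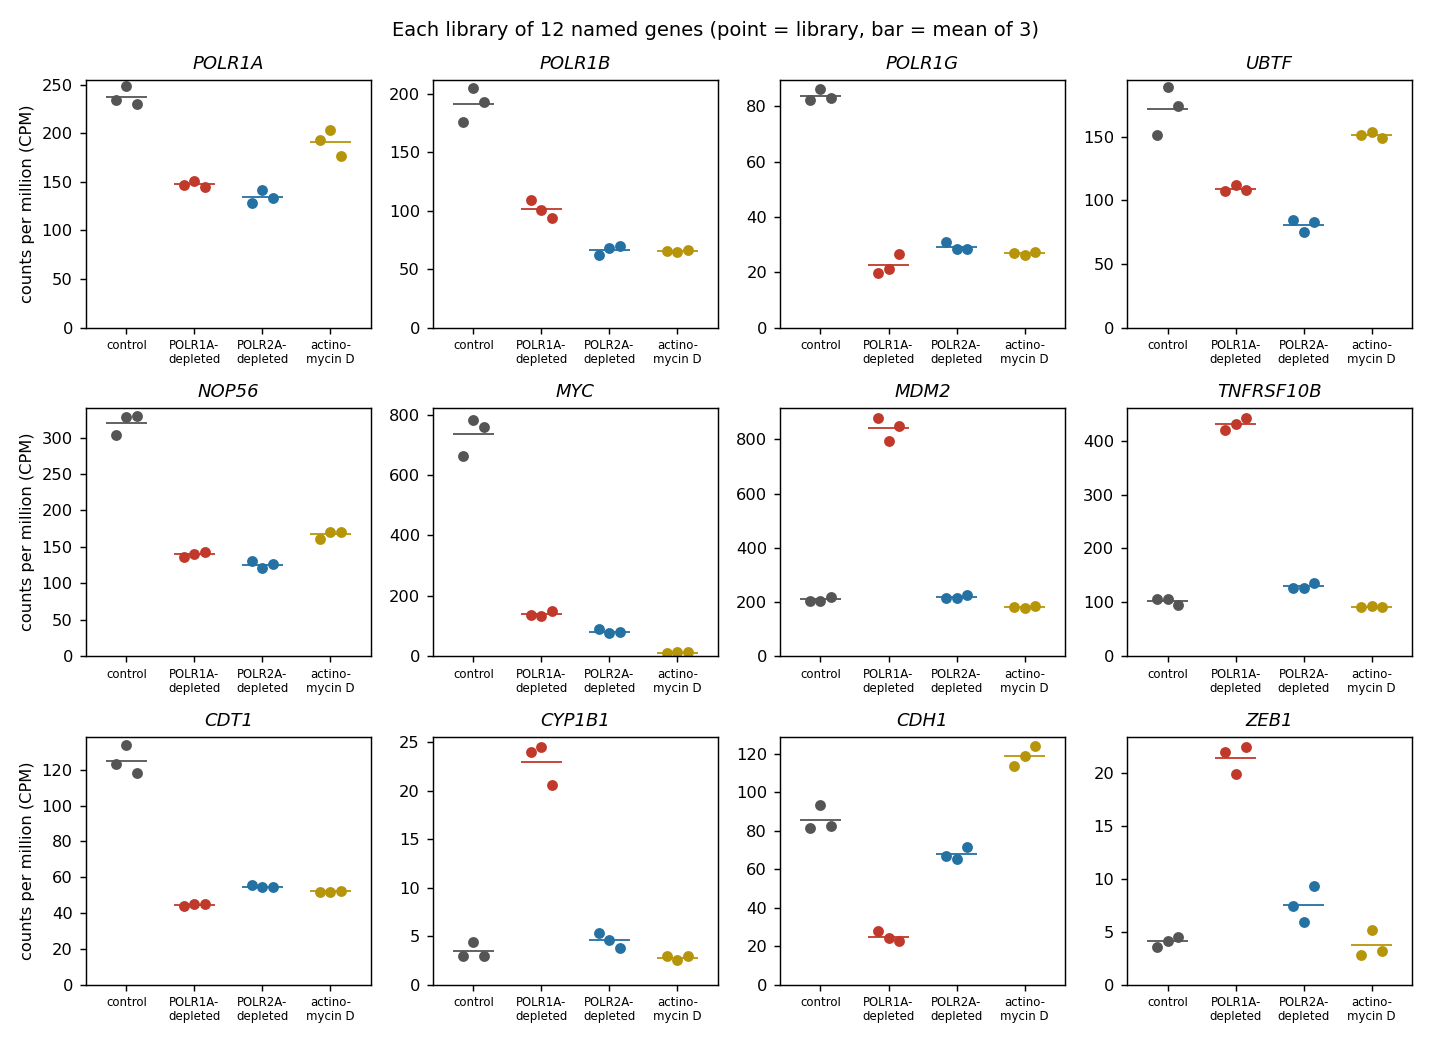
Level of 12 named genes in each of the 12 libraries, in CPM on a linear axis from 0; points are libraries and bars are means of 3. In every panel the 3 POLR1A-depleted libraries lie apart from the 3 controls. They also lie apart from both other groups for genes that include POLR1A, POLR1B, UBTF, MYC, MDM2, TNFRSF10B, CYP1B1, CDH1 and ZEB1.

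Cell cycle genes divided by phase. Of 53 genes that license and copy DNA 43 fell and 4 rose (median -0.61, and 19 lower with mitochondrial scaling), and of 30 homologous recombination and Fanconi genes 26 fell and 1 rose (median -0.58, and 9 lower). CDT1, which loads the MCM helicase, went from 123, 134 and 118 to 43.7, 44.8 and 45.2 CPM, log2 fold change -1.49 ± 0.06 (SE), adjusted p = 1.12e-14. MCM10 went from 118, 128 and 125 to 47.8, 50.6 and 51.6 CPM, and POLE2, a subunit of the leading-strand polymerase, from 23.4, 23.1 and 25.8 to 10.4, 9.69 and 9.26 CPM. EME1 and XRCC2 of recombination were at -1.17 ± 0.09 and -1.08 ± 0.08. Mitotic genes did not follow: of 45, 22 rose and 6 fell, with a median of 0.15. CDC25C, the phosphatase that triggers mitosis, rose from 9.13, 9.35 and 10 to 20.5, 19.9 and 21.1 CPM, NUF2 of the kinetochore by 0.73 and ASPM of the spindle pole by 0.61. Against the POLR2A-depleted group 41 of the 45 mitotic genes were higher and 1 lower, and against actinomycin D 17 were higher and 15 lower.

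Regulators of these phases changed in both directions. E2F2, an activator of replication genes, fell from 42.8, 43.6 and 41.3 to 11.5, 10.9 and 10.9 CPM, E2F8 by 1.34 and E2F1 by 0.95, while RB1, which holds E2Fs in check, rose from 66.9, 73.2 and 70.3 to 158, 140 and 147 CPM. Over the 19 genes of the E2F and retinoblastoma family 9 fell and 4 rose (median -0.10, and 0.25 with mitochondrial scaling). Among 16 G1 cyclins, kinases and inhibitors 8 rose and 6 fell: the inhibitors CDKN2C and CDKN2D rose by 2.09 and 1.46, and the phosphatase CDC25A fell by 1.23 and CCND1 by 0.89. Of 45 replication-dependent histone genes 14 fell and 8 rose (median -0.20, and 0.16 with mitochondrial scaling). H4C8 rose from 15.5, 21.2 and 18.3 to 42.9, 43 and 42.8 CPM and H3C6 from 3.98, 5.4 and 5.14 to 14.2, 11.7 and 11.9 CPM, though reads of near-identical histone copies are divided by the authors' estimate. The same list had medians of -1.57 with POLR2A depleted and -5.84 with actinomycin D. Among 33 genes of chromatin architecture, which the study's question on genome organization touches, 13 rose and 8 fell, within -0.52 to 0.78. CBX5, a heterochromatin protein, was at 508, 478 and 501 against 284, 299 and 282 CPM, MAU2 of the cohesin loader rose by 0.60, LMNA by 0.52, and SUV39H2 fell by 0.52 (-0.17 and not passing with mitochondrial scaling).

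**Figure D4:**
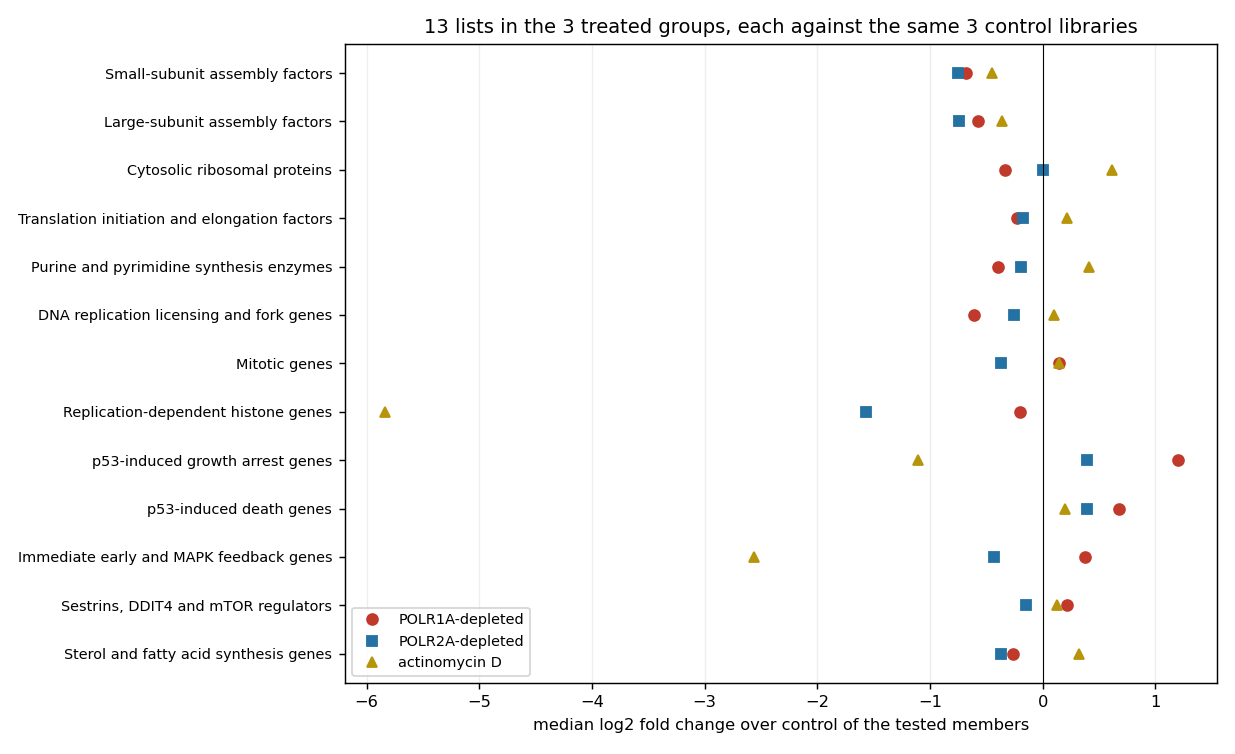
Median log2 fold change over control of the tested members of 13 lists, for POLR1A-depleted (red circles), POLR2A-depleted (blue squares) and actinomycin D (yellow triangles); all 3 share the same control libraries. The medians lie close together for the assembly factors and far apart for histone, immediate early and p53-induced arrest genes, and the ribosomal protein median is below 0 only for POLR1A depletion on this scaling.

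Nutrient and stress pathways did not move as single blocks. Of 30 genes around mTOR 15 rose and 6 fell (median 0.22). SESN1 and SESN2, which sense stress and leucine and restrain mTORC1, rose by 2.96 and 2.60, SESN3 went from 4.92, 6.35 and 5.9 to 19.7, 16.4 and 21.6 CPM, and DDIT4, another inhibitor of mTORC1, fell from 38.3, 36 and 36.4 to 14.1, 15.4 and 17.6 CPM. Of 31 ATF4 amino acid stress genes 14 fell and 7 rose (median -0.16, and 0.19 with mitochondrial scaling). ATF4 itself was at 147, 153 and 161 against 221, 233 and 251 CPM, log2 fold change -0.61 ± 0.06 (SE), adjusted p = 2.21e-08, which no longer passed with mitochondrial scaling (-0.25). The cystine carrier SLC7A11 rose from 55.7, 55.5 and 58.5 to 186, 193 and 176 CPM and ATF3 from 10.3, 10.7 and 10.7 to 23.2, 26.1 and 28.9 CPM. In the unfolded protein list 6 of 21 rose and 5 fell, with XBP1 at -1.10 ± 0.07 and the stress sensor ATF6 at 0.69 ± 0.06. Of 21 heat shock chaperones 11 rose and 3 fell: DNAJB4 was at 1.59 ± 0.09 and the abundant HSPA8 at -0.85 ± 0.07. NRF2 antioxidant genes had 9 of 23 higher and 7 lower, with OSGIN1 at 1.34 ± 0.13 and the drug exporter ABCC2 at -1.52 ± 0.06.

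Lipid synthesis genes were lower on the TMM scale, as a list. Of 35 sterol and fatty acid genes 22 fell and 3 rose, with a median of -0.26 that was 0.09 (8 lower) under mitochondrial scaling. INSIG1, a sterol-responsive brake on the pathway, went from 32.4, 39.4 and 32.6 to 9.18, 7.99 and 8.57 CPM, log2 fold change -2.02 ± 0.11 (SE), adjusted p = 2.57e-12. SQLE, squalene epoxidase, went from 93.4, 99.2 and 105 to 36.7, 34.8 and 33.9 CPM and SCD, which desaturates fatty acids, from 615, 666 and 603 to 302, 274 and 295 CPM. Of 77 mitochondrial ribosomal proteins 39 fell and 4 rose (median -0.19, and 0.16 under mitochondrial scaling), led by MRPS17 (-1.02 ± 0.12) and MRPL12 (-0.99 ± 0.08). Among the 13 mitochondrially encoded mRNAs 4 fell and none rose. MT-CO2 was at 2690, 2950 and 3170 against 4280, 6350 and 6750 CPM and MT-CO1 at 7820, 7350 and 8170 against 12100, 14500 and 15400 CPM. MT-ND4 (-0.48, edgeR adjusted p = 0.0458) and MT-CO3 (-0.39, adjusted p = 0.0101) were nearer the threshold, and neither passed with mitochondrial scaling (-0.09 and -0.01). The 13 mRNAs themselves set that scaling, which draws their values toward 0, so it is no check on them. MT-CO3 lost its call without control replicate 2 (adjusted p = 0.0987) and MT-ND4 without any 1 depleted replicate or control replicate 2 or 3 (0.094 to 0.16).

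A small group of aryl hydrocarbon receptor (AHR) targets stood out by size. AHR is a receptor for aromatic compounds, among them indoles, and IAA is an indole. CYP1A1, the classical target enzyme, rose from 0.625, 0.659 and 0.935 to 7.83, 6.61 and 7.42 CPM, 9.67-fold, log2 fold change 3.27 ± 0.26 (SE), adjusted p = 1.13e-09. CYP1B1 rose from 2.97, 4.44 and 2.92 to 24, 24.5 and 20.6 CPM, 6.65-fold, log2 fold change 2.73 ± 0.17 (SE), adjusted p = 2.01e-11. The feedback repressors AHRR and TIPARP were at 38.6, 44.7 and 44.6 against 17, 21.8 and 18.8 CPM and 225, 202 and 211 against 101, 102 and 108 CPM. AHRR shares its locus with the read-through transcript PDCD6-AHRR, between which the estimate divides reads. AHR itself did not pass, at 0.01 ± 0.06 (edgeR adjusted p = 0.936), and NQO1, a target shared with NRF2, fell by 0.41 (-0.05 and not passing with mitochondrial scaling). Of the 13 tested list members 7 rose and 2 fell. The other fall was SLC7A5 (-1.02 ± 0.06), chosen for mention after its value was seen. CYP1A1, CYP1B1, AHRR and TIPARP were each higher than in the POLR2A-depleted and the actinomycin D libraries too, CYP1B1 by 2.32 ± 0.16 and 3.05 ± 0.16. CYP1A1 was itself higher than the controls with POLR2A depleted (1.61 ± 0.28) and with actinomycin D (1.06 ± 0.28). In those groups CYP1B1 did not pass against the controls, and AHRR and TIPARP were lower. IAA, doxycycline, the edited line and the loss of POLR1A cannot be told apart in these values.

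Immediate early and MAPK feedback genes tended upward, with 23 of 42 higher and 6 lower (median 0.38). EGR2 and EGR3, growth-factor-induced zinc finger factors, rose from 1.41, 1.44 and 1.58 to 7.05, 6.57 and 7.23 CPM and from 6.71, 7.19 and 8.29 to 28.3, 31.7 and 33.6 CPM. SPRED3 rose by 2.14, while SPRY1, another brake on receptor signalling, fell by 2.13. Against the POLR2A-depleted group 29 of the 42 were higher and 4 lower, and against actinomycin D 40 were higher and none lower. NF-kB factors and targets had 10 of 23 lower and 3 higher (median -0.26, and 0.09 with mitochondrial scaling). The 3 include IL32, with no count in the controls and 6 counts with POLR1A depleted, which reached the test through the POLR2A-depleted libraries (4.75 CPM). BIRC3, an inhibitor of apoptosis, fell from 20, 23.3 and 26.9 to 6.38, 5.72 and 5.12 CPM and the chemokine CXCL8 from 3.51, 4.56 and 2.16 to 1.19, 1.12 and 1.29 CPM. CXCL1, at -1.89 ± 0.59, lost its call without depleted replicate 2 (edgeR adjusted p = 0.0546). Interferon-stimulated genes had 7 of 28 higher and 4 lower, against 20.6% and 18.6% of all genes; TAP1 rose by 1.20 and ISG15 fell by 1.0.

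Epithelial identity genes were lower and some mesenchymal genes higher. Of 51 epithelial junction and keratin genes 30 fell and 9 rose (median -0.35, and 0.01 with 13 lower and 14 higher under mitochondrial scaling), and 11 fell by 1 or more on the log2 scale. E-cadherin (CDH1), the adhesion protein of epithelia, went from 81.3, 93.4 and 82.8 to 27.9, 24.3 and 22.7 CPM, 3.45-fold lower, log2 fold change -1.79 ± 0.07 (SE), adjusted p = 6.37e-14. GRHL2, a factor that maintains epithelial genes, went from 31.5, 34.5 and 30.8 to 7.83, 6.74 and 7.83 CPM. CLDN7, a claudin of tight junctions, was at -1.61 ± 0.07, KRT18 at -1.23 ± 0.07, KRT8 at -0.86 ± 0.05 and EPCAM at -0.85 ± 0.06. In the other direction ZEB1, a repressor of CDH1, rose from 3.59, 4.14 and 4.5 to 21.9, 19.9 and 22.4 CPM, 5.22-fold, log2 fold change 2.38 ± 0.19 (SE), adjusted p = 4.37e-09. Over 24 tested mesenchymal genes 13 rose and 5 fell (median 0.52). SNAI2 was at 3.42 ± 0.84 from a control mean of 0.0655 CPM. The 5 that fell include the most abundant member, CD44, a cell surface receptor, from 977, 1040 and 1060 to 379, 359 and 365 CPM (-1.48 ± 0.05), and fibronectin (FN1, -0.80), TAGLN (-0.97) and LOX (-1.14), all 4 chosen for mention after their values were seen. The summed level of the list was 1280 to 1330 CPM against 1520 to 1620 CPM in the controls. Of the 3 tested fibroblast markers COL1A1 rose by 1.57 and THY1 fell by 2.42. SPARC (-2.49 ± 0.77), listed as mesenchymal, fell from a control mean of 0.472 CPM and lost its call without depleted replicate 2 or 3 or control replicate 3 (edgeR adjusted p of 0.0591 to 0.0767).

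CDH1 and ZEB1 differed from all other groups. The list medians against the controls were near those with POLR2A depleted, but most members differed when these groups were compared directly. Against the controls the mesenchymal list had a median of 0.52 with either polymerase depleted. Compared directly, 11 of its 24 genes were higher and 10 lower with POLR1A depleted (median 0.27). The epithelial list had medians of -0.35 with POLR1A depleted and -0.22 with POLR2A depleted against the controls. Compared directly, 19 of its 51 genes were higher and 22 lower with POLR1A depleted (median -0.03). Over all genes 62.2% passed in that direct comparison. CDH1 was at a mean of 68.1 CPM with POLR2A depleted and 119 CPM with actinomycin D, and POLR1A depletion was lower by 1.45 ± 0.08 and 2.26 ± 0.07 on the log2 scale. ZEB1 was at 7.55 and 3.70 CPM, and POLR1A depletion was higher by 1.52 ± 0.18 and 2.51 ± 0.19. Of the 51 epithelial genes 16 were lower than in each of the 3 other groups, against 5.81% of all genes, and of the 24 mesenchymal genes 6 were higher than in each, against 8.47%. Whether the untreated POLR1A line already had these levels cannot be told apart from the treatment here.

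Wnt and guidance genes were mixed. RNF43, a ligase that removes Wnt receptors, fell from 127, 116 and 119 to 28.8, 26.2 and 32.7 CPM, 4.13-fold lower, while NOTUM, a secreted Wnt inhibitor, rose from 6.09, 6.17 and 5.2 to 22.7, 23.4 and 23.8 CPM. Of 21 tested Wnt and LGR genes 9 fell and 6 rose. The 6 include LGR5, with no count in the controls and 11 counts with POLR1A depleted, which reached the test through the POLR2A-depleted libraries (20.6 CPM). Of 28 semaphorins, neuropilins and plexins 12 rose and 4 fell (median 0.40). SEMA6A rose from 9.13, 7.49 and 11 to 30.8, 32.2 and 29.8 CPM, and SEMA3A fell from 100, 112 and 108 to 41.4, 36 and 41.9 CPM.

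PPP1R12C, whose first intron holds the AAVS1 site often used to insert transgenes, was at 3.53, 3.08 and 3.36 against 45.7, 38.5 and 40.5 CPM, and at a mean of 42.7 CPM in the POLR2A line. The 12 tested neighbours on chromosome 19 had 5 higher and 2 lower, from RPL28 at -0.55 to PTPRH at 1.27 ± 0.14; none of them fell as far as PPP1R12C (-3.64 ± 0.11). Where the OsTIR1 cassette of this line lies is not given in the labels.

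Several of the most changed abundant mRNAs are in none of the lists above. SMPD1, the lysosomal sphingomyelinase, rose from 3.12, 4.02 and 3.86 to 21.3, 20.5 and 19.8 CPM and ACER2, a Golgi ceramidase, from 1.87, 3.36 and 3.62 to 15.4, 17.9 and 16.5 CPM, 5.56- and 5.50-fold higher. ARHGAP31, a GTPase-activating protein for CDC42 and RAC1, was at 31.8, 32.6 and 31.8 against 4.76, 5.28 and 5.14 CPM, and GRAMD1B, a sterol transporter, at 19.8, 19.5 and 21.4 against 3.9, 3.9 and 3.1 CPM. Among the falls, ACSL5, an acyl-CoA synthetase, went from 185, 200 and 189 to 29.9, 28.6 and 30.6 CPM, 6.46-fold lower, log2 fold change -2.69 ± 0.05 (SE), adjusted p = 2.4e-19. The transcription factor MEF2C went from 35.8, 35.8 and 38.4 to 5.6, 5.85 and 4.93 CPM, the corepressor TLE1 from 22, 19.9 and 19.9 to 2.8, 2.46 and 3.23 CPM and SOX4 from 262, 273 and 246 to 49.7, 46.9 and 49 CPM. ACSL5 was higher than that in both other groups, at 124 CPM with POLR2A depleted and 274 CPM with actinomycin D, while SOX4 and MEF2C were lower still with POLR2A depleted, at 11.1 and 3.39 CPM. Of the non-coding genes, NEAT1, the scaffold of paraspeckles, rose from 198, 136 and 182 to 450, 480 and 327 CPM and MIR31HG from 7.18, 3 and 4.5 to 11.9, 12.4 and 11.3 CPM.

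Against the other treatments more genes differed than against the controls. Between POLR1A and POLR2A depletion 62.2% of genes passed, 6855 higher and 7822 lower with POLR1A depleted, and between POLR1A depletion and actinomycin D 56.2% passed, 7502 higher and 5757 lower. These splits moved with mitochondrial scaling, to 11332 higher and 3929 lower against POLR2A depletion and to 3495 higher and 9256 lower against actinomycin D. On the TMM scale all 13 mitochondrial mRNAs were themselves lower with actinomycin D than in the controls (median -1.63). Scaling to them therefore raises the actinomycin D values, and it is no neutral alternative for that group. Assembly factors differed between treatments in both directions, with medians near 0. Against POLR2A depletion 26 small-subunit factors were higher and 18 lower (median 0.12), and 29 large-subunit factors higher and 13 lower (median 0.16). Against actinomycin D 15 small-subunit factors were higher and 29 lower (median -0.18), and 18 large-subunit factors higher and 27 lower (median -0.12). The replication genes differed from actinomycin D by a median of -0.53, with 42 of 53 lower. On the first 3 principal components, which held 53.1, 27.7 and 13.7% of the variance of log2 CPM, POLR1A-depleted and control libraries lay close on the first pair and were separated on the third, at 28.17 to 29.24 against -29.14 to -28.72.

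The calls were also related to the length of the gene. Among protein-coding genes in the shortest quintile by span (median 5.37 kb) 18.4% were higher and 25.7% lower, and in the longest quintile (median 164 kb) 36.2% were higher and 20.8% lower. The median log2 fold change went from -0.04 to 0.13 across the quintiles, and from -0.11 to 0.13 among genes of average log2 CPM of 3 or more. By nuclear chromosome, the medians of protein-coding genes ran from -0.13 on chromosome 16 (690 genes, 21.2% higher and 32.5% lower) to 0.17 on chromosome X (479 genes, 34.2% higher and 15.4% lower). Against the same controls the chromosome X median was 0.3 with actinomycin D and 0.09 with POLR2A depleted. For chromosome 16 these medians were 0.07 and -0.13. Along windows of 40 neighbouring genes the medians ran from -0.484 on chromosome 16 (chr16:1333601-2340746, 24 lower and 5 higher) to 0.444 on chromosome 9 (chr9:33921693-36677683, 20 higher and 6 lower), while 90% of the 1132 windows lay between -0.191 and 0.266.

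**Figure D5:**
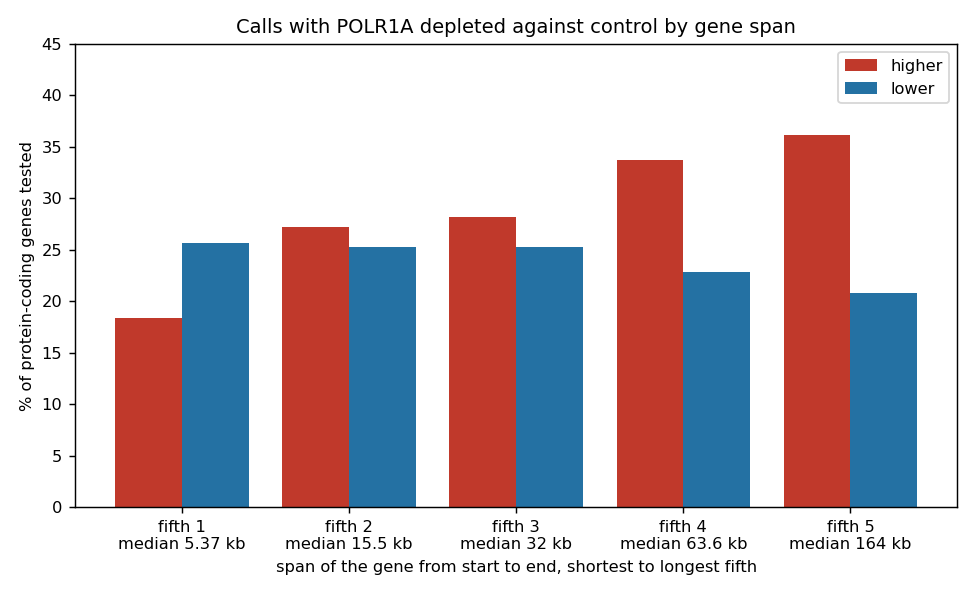
Share of protein-coding genes that passed as higher (red) or lower (blue) with POLR1A depleted against control, in quintiles by the span of the gene from start to end; the axis starts at 0. The share of higher genes rises from 18.4% in the shortest to 36.2% in the longest quintile, and the share of lower genes goes from 25.7 to 20.8%.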

How the data were processed

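Total RNA of 12 HCT116 libraries in 4 groups of 3 was sequenced after ribosomal RNA depletion with a stranded kit, per the labels' protocols. The deposited table holds the authors' estimated counts per gene, not normalized, and 76.1% of its values are whole numbers. The submitters' processing notes list STAR, RSEM 1.3.3 and HTSeq 2.0.2 among the tools, and the builds GRCh38 and hg38; which of them made this table, and with which annotation and strand setting, is not given in the sources used here.

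Counts were rounded to whole numbers. Genes were kept with filterByExpr over the 4 groups, scaled by TMM and tested with edgeR 4.0.16 (robust quasi-likelihood fit over all 12 libraries, 8 residual degrees of freedom). Adjusted p-values are Benjamini-Hochberg over all 23593 genes tested, with a threshold of 0.05. Using all groups lets them share one estimate of the spread. CPM values use TMM library sizes. The procedure was tested on simulated data.

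Symbols came from a gene name table (42338 genes) and positions from GENCODE 29 (58228 genes). Of 1332 entries in 47 gene lists 1331 matched. The lists and the comparison were chosen with earlier results of these data known. Genes named are POLR1A and POLR2A, the 15 highest and 15 lowest coding and 5 highest and 5 lowest non-coding genes with average log2 CPM of 3 or more and no overlap between groups, up to 4 members a list with the largest change, set members of interest, and genes that differ from all groups or have no count in one; some of these are not reported here. The floor for a group at 0 was 3 counts over the group, which covers counting error only. Alternatives were other scalings, DESeq2 1.42.0, other filters, the 6 libraries alone, a replicate block and each replicate left out. Depth per library was 12235119 to 21802364 counts in the 6 libraries compared.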

Additional observations from a re-analysis of the deposited data

How the results depend on the processing

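Of 220 called genes named by the rule, 185 kept direction and call under every alternative run, 33 lost the call under at least 1 and 2 turned with mitochondrial scaling (RRN3 to 0.08 and MAX to 0.05). Scaling to the mitochondrial mRNAs kept 66.2% of the calls against control and gave 1263 lower genes, 2668 higher and 525 lower by 2-fold or more. Against POLR2A depletion it gave 11332 higher, 3929 lower and 6655 higher by 2-fold or more. Against actinomycin D it gave 3495 higher and 9256 lower, with 2430 and 5133 by 2-fold or more, and 1293 genes were higher and 256 lower than in each of the 3 other groups. The 13 mRNAs that set this scaling were themselves lower with actinomycin D (median -1.63 on the TMM scale), so it raises the values of that group. The cause of the other shifts was not tested. With no filter on low counts 8205 genes were lower than with POLR2A depleted by 2-fold or more, over the 49388 genes then tested. A minimum of 100 counts, which admits fewer genes, left 3 genes with no count in the POLR1A-depleted group and 8 with none in the controls.

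Median-of-ratios scaling gave 4560 higher and 4593 lower genes, library totals alone 5240 and 3920, and DESeq2 4318 and 4396 with 466 genes left without an adjusted p. Leaving out 1 library at a time gave 4364 to 4745 higher and 3772 to 4080 lower and kept 85.7 to 88.2% of the calls. The replicate numbers did not pair the samples: deviations of same-numbered POLR1A-depleted and control libraries correlated at 0.038, 0.0304 and -0.107 across genes. With the replicate block 4654 genes were higher and 4180 lower, and 8772 of 9231 calls were kept. In the lowest quintile by abundance 3.6% of genes were called higher and 3.94% lower, and small changes there were not detectable at this depth.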

Other observations

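Small structured RNAs, which the kit is not built to capture, were read at uneven levels. Summed small nuclear RNA was at 11100, 15200 and 13500 CPM in the controls and 14200, 15300 and 15300 CPM with POLR1A depleted. Most of that sum was RN7SK, a Pol III RNA, which did not pass. RN7SK was at 10800, 14800 and 13100 CPM in the controls and 14000, 15100 and 15100 CPM with POLR1A depleted. The sum therefore says little of the other small nuclear RNAs. Of 41 tested small nuclear RNA genes 15 were lower and none higher, with a median log2 fold change of -1.15. RNU4-1 was at 28.8, 65.0 and 57.9 CPM in the controls and 18.6, 18.8 and 19.4 CPM with POLR1A depleted. Summed small nucleolar RNA was at 749, 1250 and 1110 CPM against 634, 775 and 806 CPM, and the groups overlapped. SNORD3A, the U3 RNA of pre-ribosomal RNA processing, did not pass, at 243, 584 and 507 CPM against 150, 250 and 225 CPM. Summed 5.8S ribosomal RNA was at 46.1, 115 and 114 CPM against 27.8, 46.1 and 42.0 CPM. It is what remained after depletion and no measure of Pol I output, and its 8 tested copies share reads. The mitochondrial ribosomal RNA MT-RNR2 was at 368, 508 and 451 CPM against 142, 224 and 119 CPM. Control replicate 1 was the lowest control in each of these sums and genes. RN7SK, RNU4-1, SNORD3A and MT-RNR2 were chosen after their values were seen.

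Some genes were read in only 1 of the 2 groups. With at least 30 counts over 1 group, 35 genes had no count in the controls, 22 of them protein-coding, and 21 had none with POLR1A depleted, 6 of them protein-coding. PDE6G, a phosphodiesterase subunit, had 38 to 44 counts in each depleted library and was at least 31.5-fold higher, set against a floor of 3 counts over the control group. GPR55, a lipid receptor, had 28 to 45 counts in each and was at least 28.9-fold higher, and LCN10 had 26 to 34 and was at least 22.3-fold higher. SMG1P3, a pseudogene with near-identical copies, had 14 to 75 counts and was at least 40.6-fold higher. H3C14, with 118 counts, had all of them in 1 library.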
